A study of Mus musculus with 2 samples.

Results

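Enzymes and complexes that write, read and erase methyl groups on histones and DNA were followed in cultured mouse chondrocytes, the cells that make cartilage. The set was a fixed list of 40 genes in 4 classes: 12 polycomb genes, 11 histone methyltransferases outside polycomb, 11 histone demethylases and 6 genes of DNA methylation and its reversal. Members were found by gene symbol in the deposited table, which held 39 of them among its 13138 rows. The remaining member, the histone H3 lysine 4 methyltransferase gene Setd1b, was not analysed here. All 39 passed the minimum of 50 on the linear scale (5.64 on the log2 scale), which 12809 genes passed in all.

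The study sequenced messenger RNA from 2 libraries of primary mouse chondrocytes, strain C57Bl/6, kept ex vivo in micromass culture, a dense drop of cells that forms cartilage-like nodules. One library, called Cre here, is labelled hdac3-knockout and came from cells given an adenovirus for Cre recombinase, which cuts out DNA between loxP sites. The other, called GFP, is labelled wild-type and came from cells given a control adenovirus for green fluorescent protein. The labels give no floxed allele, age, number of animals or number of dishes. The series asked how loss of Hdac3, a histone deacetylase, changes gene expression and histone H3 lysine 27 acetylation, and only the expression table was used here. Each group is 1 library, so no difference below has a replicate, an error or a p-value, and each compares 2 libraries rather than 2 conditions.

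Values are log2 normalized gene counts as the authors deposited them, and differences are Cre minus GFP. The heading of the deposited difference column points to a regularized log, which shrinks differences of weakly expressed genes. That reading is an inference. The table holds no read counts, so sequencing depth is unknown. Hdac3 itself had 10.68 in Cre and 10.69 in GFP, so its gene total did not bear out the knockout label. Nothing used here states which exons Cre removes, and a transcript lacking them would still be counted. All 10 chondrocyte markers were in the table, with Col2a1, the main cartilage collagen, at 19.97 in Cre and 20.35 in GFP, and 9 of the 10 were at least 1.2-fold lower in Cre. All 8 macrophage markers were also in the table, and their summed level, most of it Lyz2, was 15.48 in Cre and 14.80 in GFP on the log2 scale. They went both ways, with 5 of the 8 at least 1.2-fold higher in Cre and 1 lower, Mrc1 at -0.73, named after its value was seen. Of the other cell types listed, the 4 skeletal muscle markers found lay higher in Cre and the 5 osteoblast markers lower. Fibroblast, endothelial and adipocyte markers went both ways, with the summed fibroblast level, most of it Col3a1, at 17.27 in Cre and 16.92 in GFP. In whole cultures, fewer cells of a type and less RNA per cell cannot be told apart. The part of these shifts in any difference given below was not tested.

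Histone methylation marks genes for silencing or use according to the residue that carries it. Polycomb repressive complex 2 (PRC2) methylates lysine 27 of histone H3, and polycomb repressive complex 1 (PRC1) binds that mark and ubiquitinates histone H2A. Methylation of lysine 9 marks heterochromatin, that of lysine 4 marks promoters and enhancers, and that of lysines 36 and 79 accompanies transcription. Most demethylases, and the TET enzymes that oxidize methylcytosine, are dioxygenases that use oxygen, iron and 2-oxoglutarate. In cartilage, PRC2 and several demethylases are known as regulators of chondrocyte growth and maturation.

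Most members differed little between the libraries, as did most genes. Kdm3a and Kdm4b, both genes of lysine 9 demethylases, were at least 1.2-fold higher in Cre, and no member was 1.2-fold lower. Of all 12809 genes compared, 7.88% lay that far up in Cre and 6.25% that far down, so the members' counts, 2 and 0 of 39, were not above the background. No member reached 1.5-fold, a size that 2.25% of all genes reached upwards and 0.952% downwards, or 2-fold, which 0.734% and 0.0703% reached. At 1.1-fold, 7 members were higher and 5 lower, beside 17.2% and 15.6% of all genes. The median difference was 0.03 over the 39 members and -0.00041 over all genes, and 21 members lay above 0 and 18 below, where 49.9% of all genes lay above. Without regard to sign, the median difference was 0.10 for members and 0.09 for all genes. Between the libraries, 90% of the members differed by less than 0.21, and 90% of all genes by less than 0.33.

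**Figure D1:**
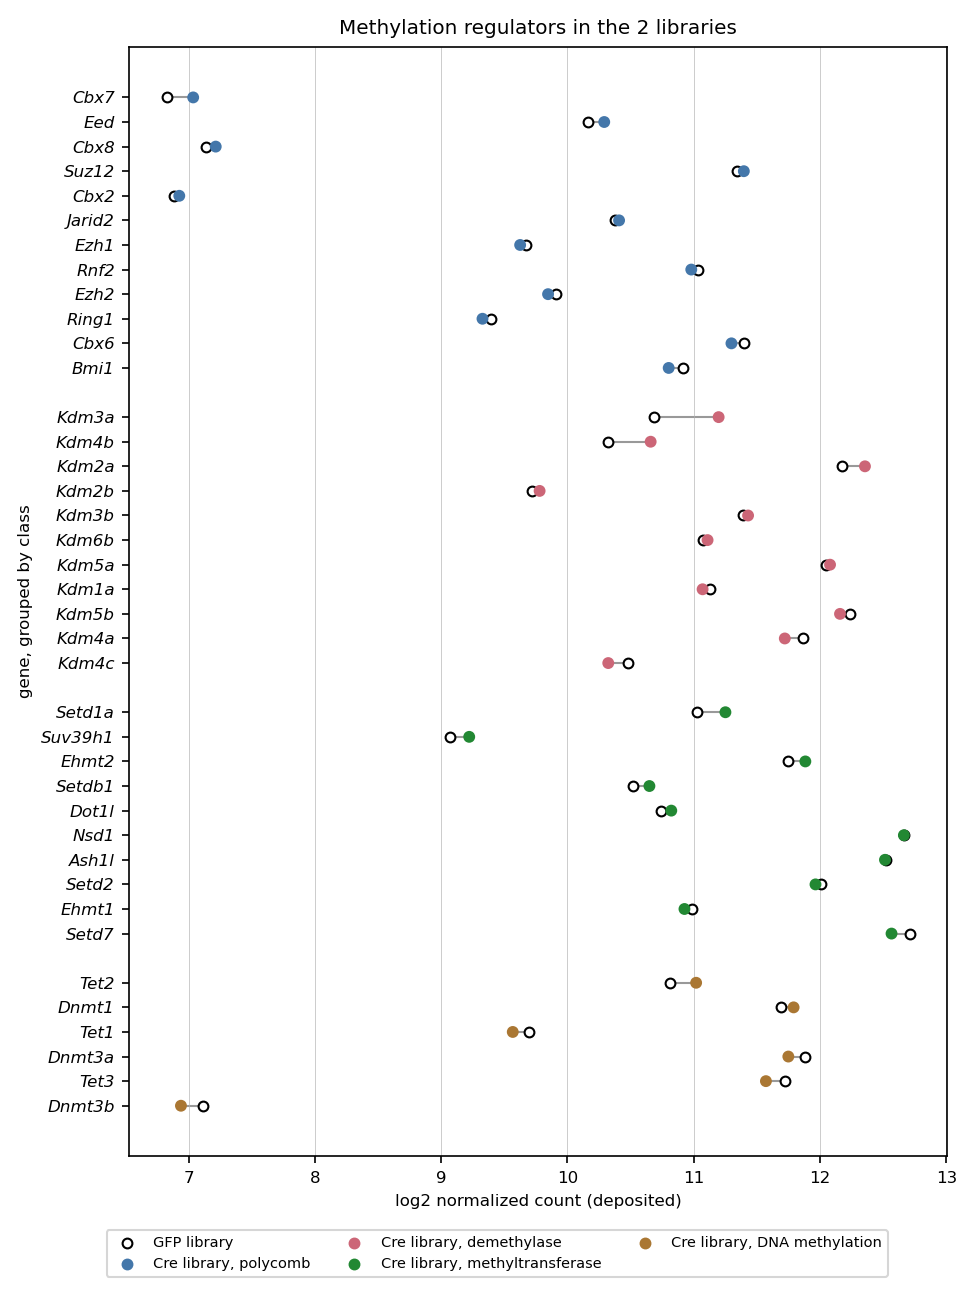
Deposited log2 normalized count (horizontal axis) of each of the 39 members, with the GFP library as an open circle and the Cre library as a filled circle coloured by class. The 2 circles nearly touch for most genes, and the widest gap is that of Kdm3a, at 11.20 in Cre and 10.68 in GFP.

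Kdm3a encodes a dioxygenase that removes methyl groups from lysine 9 of histone H3 and is known as a target of the hypoxia-inducible factors. Its log2 normalized count was 11.20 in Cre and 10.68 in GFP, a difference of 0.52 or 1.43-fold. Of the 500 genes nearest to it in mean level, 96.8% differed by less, and the 5th and 95th percentiles of those 500 were -0.22 and 0.36. It was the only one of 39 members (2.56%) outside that range of its own neighbours. Of all genes, 10.3% lay outside theirs, so this count too was not above the background. Kdm3a is a minus-strand gene of chromosome 6 (71588972 to 71632990 on GRCm38) and shares no exon base with another annotated gene.

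The stretch of 177 bases just upstream of the outermost annotated exon of Kdm3a is shown because that gene had the largest difference of the set. It is minus-strand sequence of chr6:71632991-71633167 from RefSeq on GRCm38.p6, with no base of any annotated exon, and the capitals mark a CCAAT box. RefSeq gives Kdm3a 2 other starts, and the exon-free stretches before them (151 and 250 bases), not shown, hold neither a CCAAT box nor a hypoxia core.
Kdm3a: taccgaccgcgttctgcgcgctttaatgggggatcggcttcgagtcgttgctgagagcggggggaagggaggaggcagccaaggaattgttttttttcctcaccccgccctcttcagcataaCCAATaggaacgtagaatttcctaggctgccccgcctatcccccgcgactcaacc
Hypoxia response elements have the core letters ACGTG or, in another form, GCGTG. Both were searched on both strands, and neither was in this stretch, although 1 GCGTG lay in the annotated exon that follows it. Among 32851 mouse promoters, cut to the same place relative to the transcript start, 11.1% held the first core and 19.6% the second. The CCAAT box, searched on both strands after the sequence had been seen, was in 24.4% of them. A missing match says only that these letters are not in this window. Sequences were found for 31 of the 39 members, and Kdm4b was not among them. Promoters of the members were rich in CpG: over the 250 bases before the start, the median ratio of observed to expected CpG was 0.83 for 44 promoters of members and 0.37 for all promoters, and the median GC content was 67.4% and 52.4%. Either core was found in 29 of the 44 (65.9%), which belong to 31 genes, and in 38.6% of all, which belong to 27025 genes, expressed here or not. Both cores hold a CpG, and no promoters of like CpG content were compared. Whether the members hold more cores than their CpG content gives was therefore not tested.

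Kdm4b, a demethylase of tri- and dimethylated lysine 9 that is also known as a hypoxia-inducible gene, came next. It had 10.66 in Cre and 10.32 in GFP, a difference of 0.34 or 1.26-fold. This lay inside the range of its neighbours in level, of which 90.6% differed by less and whose 95th percentile was 0.41. Kdm4b is on the plus strand of chromosome 17, at 56326062 to 56402870, with no exon base shared with another gene.

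The close relatives of these enzymes differed by less, some in the other direction. Kdm3b, the paralog of Kdm3a, had 11.43 in Cre and 11.39 in GFP, a difference of 0.04. Of its exon bases, 24.6% overlap an antisense gene, and it is not stated whether the counting used strand. Kdm4a and Kdm4c, which act on lysines 9 and 36, were slightly lower in Cre, with 11.72 against 11.86 (-0.14) and 10.32 against 10.48 (-0.15). The log2 ratio of Kdm3a to Kdm3b was therefore 0.48 higher in Cre than in GFP, and those of Kdm4b to Kdm4a and to Kdm4c were 0.48 and 0.49 higher. These ratios compare genes within a library and do not move with scaling.

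Make-up of the families was compared on the level per kilobase of exon, which allows different genes to be set side by side. Kdm3a made up 39.9% of the summed level of Kdm3a, Kdm3b and their paralog Jmjd1c, which is not a member and differed by -0.0079, in Cre and 31.9% in GFP. That sum was 1.14-fold higher in Cre. Kdm4b made up 29.1% of the summed Kdm4 level in Cre and 22.7% in GFP, while the sum differed by -0.02. Over the 5 members that are lysine 9 demethylase genes, the summed level per kilobase was 1.05-fold higher in Cre. Kdm4a was the largest part in both libraries, at 36.1% in Cre and 41.8% in GFP.

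**Figure D2:**
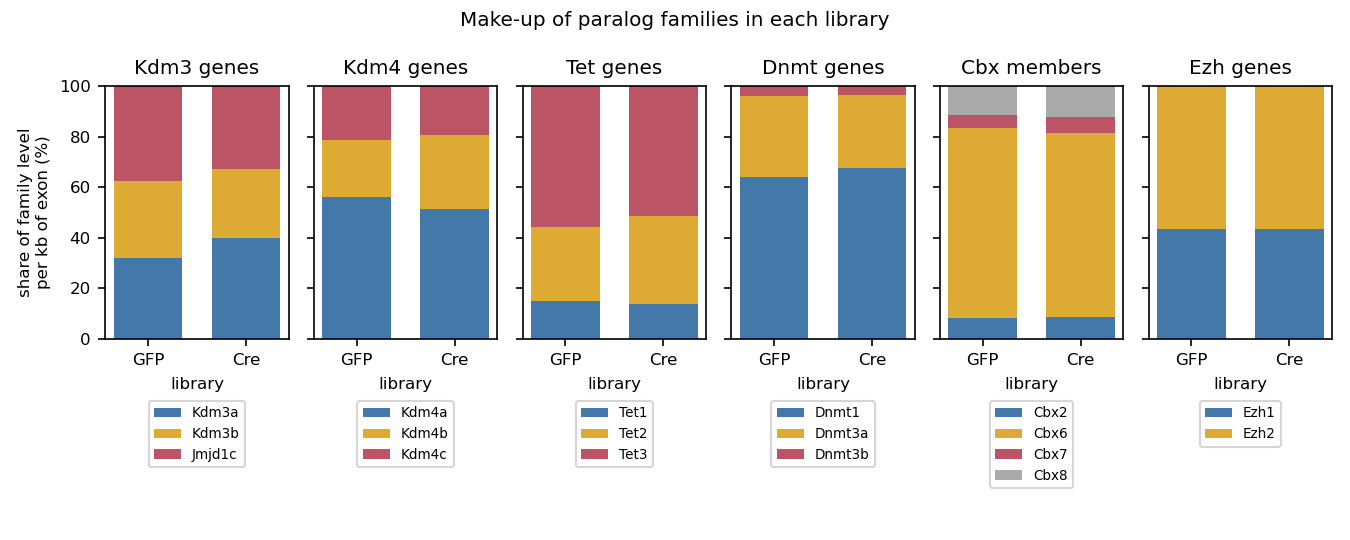
Share of each paralog in the summed level per kilobase of exon of its family (vertical axis, percent), for the GFP and the Cre library. Kdm3a takes 39.9% of the Kdm3 bar in Cre against 31.9% in GFP and Tet2 takes 34.7% of the Tet bar against 29.4%, while the Ezh bars are nearly the same.

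Other demethylase genes were closer to level. Over all 11, the median difference was 0.03, with 7 above 0 and 4 below. Kdm2a, which demethylates lysine 36, had 12.36 in Cre and 12.17 in GFP (0.18), and its paralog Kdm2b, which also recruits a variant PRC1 to CpG islands, had 9.78 and 9.72 (0.06). Part of Kdm2b is copied in the gene model Gm12397 (615 bases at 100% identity), so reads there may be shared. Among lysine 4 demethylase genes, Kdm1a, the amine oxidase LSD1 that works with histone deacetylases in the CoREST complex, had 11.07 in Cre and 11.13 in GFP (-0.06). Kdm5a and Kdm5b, which erase trimethylation of lysine 4, differed by 0.03 and -0.08. Kdm6b, the JMJD3 demethylase that removes the lysine 27 mark of PRC2, had 11.11 in Cre and 11.08 in GFP, a difference of 0.03, and 20.2% of its neighbours in level were closer to 0.

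**Figure D3:**
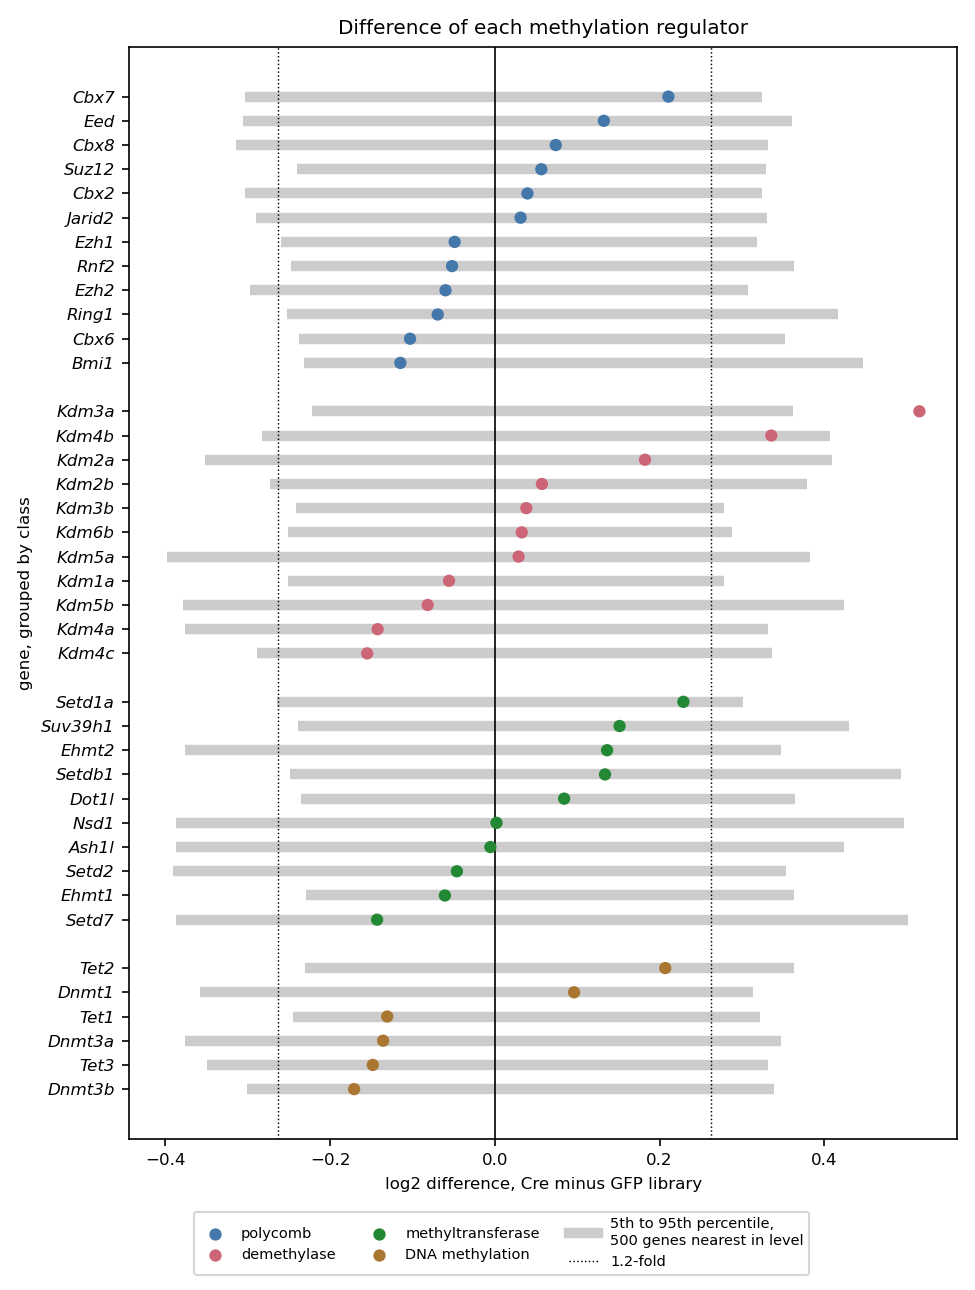
Log2 difference, Cre minus GFP, of each member (dots, coloured by class), with a grey bar from the 5th to the 95th percentile of the 500 genes nearest in mean level and dotted lines at 1.2-fold. Kdm3a at 0.52 is the only dot beyond its bar, and Kdm4b at 0.34 passes the dotted line inside its bar.

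Polycomb genes were level, with a median of -0.0087 over 12, 6 of them above 0 and 6 below. In PRC2, the catalytic subunit genes Ezh2 and Ezh1 had 9.85 in Cre against 9.91 in GFP (-0.06) and 9.63 against 9.67 (-0.05). Their ratio moved by 0.01, and Ezh2 was 56.5% of their summed level per kilobase in Cre and 56.7% in GFP. The core subunit genes Suz12 and Eed, without which PRC2 has no activity, differed by 0.06 and 0.13, and Jarid2, which helps PRC2 onto chromatin, by 0.03. Eed, at 10.29 in Cre and 10.16 in GFP, had the largest difference of the 5, and 64.2% of its neighbours in level were closer to 0.

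In PRC1, the ubiquitin ligase genes Rnf2 and Ring1 differed by -0.05 and -0.07. Bmi1, which encodes their partner and represses the Cdkn2a locus, had 10.80 in Cre and 10.92 in GFP (-0.11). Bmi1 shares 2658 bases at 97.0% identity with the gene model Gm5946, so its count is uncertain. The CBX proteins, which read the lysine 27 mark, split by level: Cbx6, the largest part of the 4 Cbx members per kilobase (72.7% in Cre and 75.3% in GFP), differed by -0.10. The less abundant Cbx7, Cbx8 and Cbx2 lay above 0. Cbx7 had 7.04 in Cre and 6.83 in GFP, a difference of 0.21, the largest of the polycomb class, and 79.6% of its neighbours were closer to 0. Cbx8 differed by 0.07 and Cbx2 by 0.04. These 3 are among the weakest members, where a regularized log would understate differences most.

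Histone methyltransferase genes outside polycomb had a median of 0.04 over 10, with 6 above 0 and 4 below. Setd1a, the catalytic subunit of a lysine 4 methyltransferase complex, had 11.25 in Cre and 11.02 in GFP, a difference of 0.23 that lay just short of 1.2-fold. Of its exon bases, 52.3% are shared with other annotated genes, mainly the gene model Gm49388 on the same strand, so its value is uncertain. Setd7, a lysine 4 monomethyltransferase that also modifies other proteins, had 12.57 in Cre and 12.71 in GFP (-0.14).

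Of the 4 lysine 9 writers, 3 lay slightly above 0 and 1 below, where 49.9% of all genes lay above. Suv39h1, which trimethylates pericentric heterochromatin, had 9.22 in Cre and 9.07 in GFP (0.15), with 14.6% of its exon bases overlapping an antisense gene. Ehmt2, the G9a enzyme of euchromatic lysine 9, had 11.88 and 11.75 (0.14), and Setdb1, which silences retroelements, 10.65 and 10.52 (0.13). Ehmt1, which pairs with Ehmt2, lay the other way, at 10.93 in Cre and 10.99 in GFP (-0.06). Each of the 4 stayed within the range of its neighbours in level.

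Lysine 36 writers were among the most level genes of the set. Nsd1, a dimethyltransferase of lysine 36, had 12.66 in both libraries, a difference of 0.0020. Ash1l differed by -0.0054, a sign that turned under scaling to equal totals (0.0023), and Setd2, an enzyme that trimethylates lysine 36 and travels with RNA polymerase II, by -0.05. The lysine 79 gene Dot1l lay near the middle of the set by size of difference. It encodes the main known methyltransferase of that residue, with known roles in cartilage upkeep, and had 10.82 in Cre and 10.74 in GFP (0.08).

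Genes of DNA methylation had the lowest class median, -0.13 over 6, with 2 above 0 and 4 below. Their mean was closer to 0, at -0.047. Dnmt1, which copies methylation after replication, had 11.79 in Cre and 11.69 in GFP (0.10). The de novo methyltransferase genes lay the other way: Dnmt3a had 11.75 and 11.88 (-0.14) and Dnmt3b 6.94 and 7.11 (-0.17), the lowest difference of all members. Dnmt3b is among the weakest members, and 71.8% of its neighbours in level were closer to 0. Per kilobase, Dnmt1 was 67.5% of the summed Dnmt level in Cre and 63.9% in GFP, and Dnmt3b was 3.38% and 3.85%. Uhrf1, which brings DNMT1 to replicated DNA, differed by 0.11, and 12 S-phase genes had a median of 0.05, with 7 above 0.

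TET genes, which start active demethylation, also split. Tet2 had 11.02 in Cre and 10.81 in GFP, a difference of 0.21, and 84.0% of its neighbours were closer to 0. Tet1 had 9.57 in Cre and 9.70 in GFP (-0.13), and Tet3 11.57 and 11.72 (-0.15). The log2 ratio of Tet2 to Tet3 was 0.36 higher in Cre than in GFP and that of Tet2 to Tet1 0.34 higher. Per kilobase, Tet3 was the largest part of the family in both libraries (51.4% in Cre and 55.8% in GFP), and the summed level differed by -0.03.

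Levels per kilobase of exon placed the members around the middle of the table, with a median of 7.94 on the log2 scale against 7.58 for all genes with an annotated length. Ehmt2 was the highest at 9.36, above 83.2% of genes, followed by Kdm4a at 9.26, Setd7 at 9.20 and Suz12 at 9.06. At the other end were Cbx7 at 4.23, Dnmt3b at 4.67, Cbx2 at 4.82, Cbx8 at 5.30 and Tet1 at 5.68. Lengths are those of all annotated exons joined, so a gene with long alternative exons is placed too low.

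Partners of these enzymes, from lists drawn up for the same complexes, lay mostly within 1.2-fold too. Of all genes compared, 7.88% were at least 1.2-fold higher in Cre and 6.25% lower. Of 20 polycomb partner genes, 2 were at least 1.2-fold higher in Cre and 0 lower: Mtf2, a PRC2 accessory gene (10.70 against 10.26, 0.44), and Pcgf5, a PRC1 variant gene (8.21 against 7.81, 0.40). Their median was 0.04. Of 33 other histone methyltransferase and partner genes, 0 were 1.2-fold higher or lower, and the median was 0.04. Of 11 other demethylase and partner genes, 2 were higher and 1 lower, with a median of -0.0079. On so few genes, both shares were above those of all genes. Jmjd6, a dioxygenase gene, had 10.88 in Cre and 10.38 in GFP (0.50), and Rcor2, a CoREST subunit gene, 9.07 and 8.71 (0.36). Kdm1b, the paralog of Kdm1a, lay the other way, at 10.13 and 10.54 (-0.41). Of 13 DNA methylation partner genes, 0 passed 1.2-fold in either direction, with a median of 0.04.

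A list of enzymes that make or use 2-oxoglutarate, succinate, fumarate or methyl donors lay slightly lower in Cre. Of 14 such genes, 12 lay below 0, with a median of -0.09 and 0 at 1.2-fold. Of all genes, 49.9% lay above 0, and 7.88% and 6.25% were at least 1.2-fold higher and lower. The largest differences were those of Idh2, which makes 2-oxoglutarate in mitochondria (-0.21), and Sdhb, a subunit gene of succinate dehydrogenase (-0.18). Both lay inside the range of their neighbours in level.

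Kdm3a and Kdm4b are set here beside a list of hypoxia and glycolysis genes. Of these 15 genes, 12 were at least 1.2-fold higher in Cre, beside 7.88% of all genes, and the median of the 15 was 0.62. Egln3, an oxygen-sensing prolyl hydroxylase gene, differed by 1.19, Car9 by 1.18 and Adm by 0.95. The differences of Kdm3a (0.52) and Kdm4b (0.34) lay below that list's median. Whether they move with those genes was not tested, since 2 libraries allow no test. Other members were not sorted by a known response to hypoxia, so these 2 were set here only as the members past 1.2-fold. Kdm6b is known to be induced by NF-kappaB in macrophages. All 14 NF-kappaB target genes listed were at least 1.2-fold higher in Cre, again beside 7.88% of all genes. Their differences were 0.53 to 3.40 on the log2 scale. Kdm6b differed by 0.03, and whether it moves with those genes was not tested. Both lists were known from earlier results of these data to be higher, so their direction is not independent evidence.

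**Figure D4:**
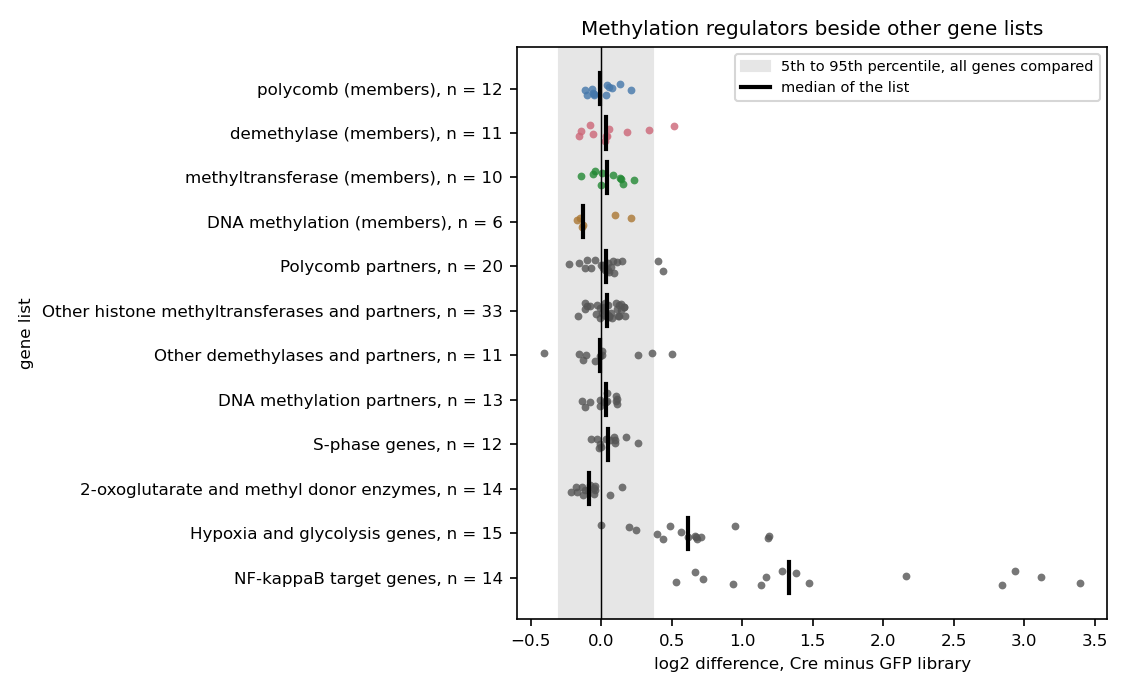
Log2 difference, Cre minus GFP, of every gene in the 4 member classes (coloured) and in 8 other gene lists (dark grey), with the list median as a black bar and the 5th to 95th percentile of all genes as a grey band (-0.30 to 0.37). Medians of the member classes and of their partners lie between -0.13 and 0.04, whereas the hypoxia and NF-kappaB lists have medians of 0.62 and 1.33.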

How the data were processed

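Messenger RNA was sequenced in 2 libraries, 1 per group. Per the submitters' processing notes, bcl2fastq 1.8.4, TopHat2 2.0.6, HTSeq and the build mm10 were used. The annotation, normalization and strand setting were not given in the sources used here. The authors deposited log2 normalized gene counts with their mean and difference, and the difference was found to be GFP minus Cre in every row. Sample source names mention an acetylation assay, whereas titles and molecule give RNA.

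Genes with a mean of at least 50 were compared with pandas 2.3.3. With 1 library per group no test was run, so genes were described by both values, their difference, a 1.2-fold count beside that of all genes, and their place among the 500 genes nearest in mean level; the code was tested on simulated data. Every member is named, those past 1.2-fold and the 3 largest of each class more fully, and at most 3 genes of each other list. Jmjd1c was added as a paralog after the values were seen. Members and lists were chosen with earlier results of these data known. Coordinates and exon lengths come from GENCODE M21 on GRCm38 (mm10), matched by symbol and chromosome for 90.4% of genes. Near-identical copies (95% identity over 300 bases) were sought among transcripts with BLAST 2.17.0.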

Additional observations from a re-analysis of the deposited data

How the results depend on the processing

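The number of members past the fold depended on the fold chosen: at 1.1-fold 7 were higher and 5 lower in Cre, and at 1.5-fold and at 2-fold 0 were higher and 0 lower, against 2 higher and 0 lower at 1.2-fold. At 1.1-fold, 17.2% of all genes were higher and 15.6% lower. The mean in place of the median moved the DNA methylation class from -0.13 to -0.047, through Tet2 and Dnmt1. Median scaling (offset -0.00041), equal totals (offset -0.0077), no minimum and a minimum 10 times higher, which left 35 of the 39 members, moved no class median by 0.05 or more and left the counts at 1.2-fold as they were. The higher minimum did take the polycomb median from -0.0087 to -0.052 and that of all members from 0.03 to 0.0020. Of 117 alternative values, 112 stayed close to the value reported. Most of the 117 were member differences or class medians shifted by a scaling offset, too small to move them by 0.05. Removing the minimum could change nothing, since all 39 members pass it. The tally is therefore no measure of how stable the results are. Ash1l was the only member whose sign turned. The depth is unknown, so no limit of detection can be given. No paired analysis was possible because neither group has a second library.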
